A study of Mus musculus with 4 samples.

Results

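DNMT3B ChIP-seq islands that lie wholly inside a gene, with their midpoint nearer to the gene start than to the gene end, numbered 1627 of the 8242 islands in the deposited SICER list (19.7%). A member had to be paired with a transcript whose accession begins with NM, to start after the gene start position and to end before the gene end position. Its relative position, the distance of the midpoint from the start of transcription divided by the gene length, had to lie under 0.5. These are called first-half islands here. Of the 3794 islands inside such genes they made up 42.9%, and the other 2167 are called second-half islands. They lay in 1002 genes, listed under 1020 transcripts, and covered 8.74 Mb. The list gives no level of enrichment, so none entered this choice. Its name marks it as a top selection of islands, on a basis not given in the sources used here, so counts and shares hold for the listed islands only.

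The 2 ChIP libraries came from lung metastases that 4T1 cells, an established line of mouse mammary carcinoma, formed in the strain BALB/c, with an antibody against DNMT3B. Another 2 libraries were input from the same source with no antibody, and lung labels 3 and 5 occur once in each kind. 4T1 is 1 cell line, no other tumour and no tumour-free lung was compared, and whether the labels stand for separate mice is not stated. Metastases also hold lung, vessel and blood cells of the host, so an island may come from more than 1 cell type. The lists hold positions only, with no value for any library, so depth is unknown and no spread between libraries can be given. The tests below compare classes of islands or genes, and neighbouring islands are not independent.

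DNMT3B is a de novo DNA methyltransferase, an enzyme that adds methyl groups to cytosines that lie next to a guanine (CpG sites). Its PWWP domain binds histone H3 methylated at lysine 36, a mark laid down behind elongating RNA polymerase, and in mammalian cells DNMT3B is known for methylating the bodies of transcribed genes. Starts of genes with many CpG sites usually stay unmethylated. SICER calls broad islands by joining enriched windows across short gaps, while MACS calls narrow regions.

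Positions are printed as deposited. The processing notes name mm10, but the paired gene positions of 1538 first-half islands differed by more than 1 kb at the start or the end from RefSeq positions in GRCm38, the same assembly, and those of 89 islands did not. The median difference of the gene start position over the 1020 transcripts was 186 kb. The build of these positions is therefore not known, and results that rest on the narrow regions are given for both sets of genes. Relative position, distance and width come from island and gene positions of the same line of the list.

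Sequences around the starts of 5 genes are shown because an island begins close behind each of them, and because CpG sites are what DNMT3B acts on. They are RefSeq sequences of GRCm38.p6, 250 bases before to 50 after a start, printed 5′ to 3′ with every CG in capitals. In each of them the distance from this start to the end of the gene was within 1 kb of the deposited gene length. The coordinates belong to GRCm38.p6 and are not those of the islands. In Agap1 a chain of islands begins 615 bp behind the deposited gene start. In Wfs1, Hunk and Fam20c an island begins within 400 bp of the deposited start. In Ap1g2 an island fills almost the whole front part of a short gene. The deposited start need not be the exact base of the start shown here.
Agap1 (chr1:89454561-89454860, + strand): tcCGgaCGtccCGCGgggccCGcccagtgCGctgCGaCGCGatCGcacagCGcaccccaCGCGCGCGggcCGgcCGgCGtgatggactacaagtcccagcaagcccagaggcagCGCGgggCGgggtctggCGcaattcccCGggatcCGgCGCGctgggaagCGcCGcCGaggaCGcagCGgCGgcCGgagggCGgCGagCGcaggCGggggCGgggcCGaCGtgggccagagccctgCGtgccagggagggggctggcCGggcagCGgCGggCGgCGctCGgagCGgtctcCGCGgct
Wfs1 (chr5:36988933-36989232, - strand): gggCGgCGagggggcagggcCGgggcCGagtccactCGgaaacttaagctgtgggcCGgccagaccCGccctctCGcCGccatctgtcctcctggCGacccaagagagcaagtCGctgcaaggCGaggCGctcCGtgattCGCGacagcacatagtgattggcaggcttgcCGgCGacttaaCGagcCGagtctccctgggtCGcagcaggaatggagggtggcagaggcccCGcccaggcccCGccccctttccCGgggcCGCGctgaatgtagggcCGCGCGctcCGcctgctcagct
Hunk (chr16:90386147-90386446, + strand): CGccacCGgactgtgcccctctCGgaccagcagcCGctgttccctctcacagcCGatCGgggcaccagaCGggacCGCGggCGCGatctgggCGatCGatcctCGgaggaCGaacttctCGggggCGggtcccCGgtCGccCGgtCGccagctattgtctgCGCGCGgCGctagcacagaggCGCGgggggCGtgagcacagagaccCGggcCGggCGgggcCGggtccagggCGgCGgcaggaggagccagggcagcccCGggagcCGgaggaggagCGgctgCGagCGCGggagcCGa
Fam20c (chr5:138754831-138755130, + strand): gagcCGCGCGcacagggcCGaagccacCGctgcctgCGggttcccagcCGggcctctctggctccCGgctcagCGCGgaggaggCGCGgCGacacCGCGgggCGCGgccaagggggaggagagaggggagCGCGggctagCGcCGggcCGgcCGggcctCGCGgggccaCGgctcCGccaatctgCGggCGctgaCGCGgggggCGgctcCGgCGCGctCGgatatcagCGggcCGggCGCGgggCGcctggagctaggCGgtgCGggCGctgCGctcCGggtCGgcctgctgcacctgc
Ap1g2 (chr14:55106544-55106843, - strand): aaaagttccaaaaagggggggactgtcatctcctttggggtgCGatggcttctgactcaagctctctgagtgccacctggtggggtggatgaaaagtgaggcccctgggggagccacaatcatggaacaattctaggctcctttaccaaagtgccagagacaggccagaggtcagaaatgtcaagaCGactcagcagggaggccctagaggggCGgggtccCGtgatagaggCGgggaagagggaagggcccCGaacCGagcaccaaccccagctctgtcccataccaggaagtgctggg

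The 300 bases held 50 CG in Agap1, 30 in Wfs1, 41 in Hunk, 47 in Fam20c and 7 in Ap1g2. Among 21045 start sequences of protein-coding genes, 95.5% held at least 1 CG (the letters C then G, which read the same on both strands). The median was 13 CG, with quartiles of 4 and 25. As many CG as in Agap1 stood in 1.11% of these sequences, and as many as in Ap1g2 in 64.9%. Start sequences were at hand for 786 of the 1002 genes (78.4%), and first-half genes were not compared with other genes in their CG. The 5 were picked for their islands near the start and do not stand for all of these genes.

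First-half islands were sparse directly behind the gene start and more frequent farther in. When the gene is divided into 10 equal bins, the bin at the start held 172 islands, and the next 4 bins held 315, 368, 390 and 382. Second-half islands numbered 435, 439, 463, 487 and 343 in the bins up to the gene end. Islands that reach over the gene start (1166) or the gene end (975) are not inside islands, and leaving them out lowers the outer bins. The low count at the start is therefore no measure of how rare islands are there. An island of given width also has less room at either end of a short gene, so longer genes were counted apart. In genes of 100 kb or more the bins of the front part held 84, 110, 113, 107 and 103 islands, against 87, 95, 125, 166 and 167 in the bins that follow. These counts describe the position that defines the islands and carry no test. The share of inside islands in the front part was 41.4% on the plus strand and 44.2% on the minus strand. It was 45.6% in genes whose deposited positions equal GRCm38 and 42.7% in the others.

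**Figure D1:**
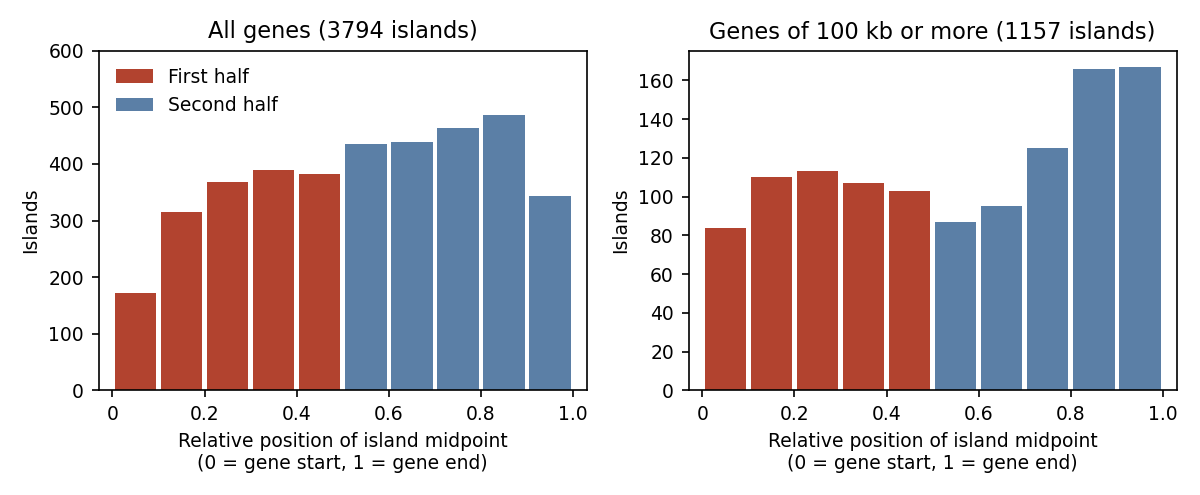
Number of inside islands (y axis) in 10 equal bins of relative position (x axis, 0 at the gene start and 1 at the gene end), for all genes and for genes of 100 kb or more. Bars are counts, with first-half islands in red and second-half islands in blue; the bin at the start holds 172 of 3794 islands in all genes and 84 of 1157 in long genes.

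In bases, the midpoint of a first-half island lay 14.8 kb behind the gene start in the median, with quartiles of 7.14 and 31.2 kb. The nearest was at 276.5 bp, in Lhx3, a LIM homeobox gene of pituitary and motor neuron development, where an island of 400 bp began 77 bp behind the start. Cct2, a subunit of the cytosolic chaperonin, followed at 0.470 kb, Wfs1, a membrane protein of the endoplasmic reticulum, at 0.521 kb, and the potassium channel genes Kcnj4 and Kcnv2 at 0.671 and 0.791 kb. An inside island with its midpoint this near to the start must be short, and these were 400 to 1400 bp wide. The farthest lay 538 kb behind the start of Cntn5, a neural adhesion gene 1244 kb long. Others followed at 503 kb in Cdh13, which encodes an atypical cadherin, 450 kb in Sdk1, a synaptic adhesion gene, 394 kb in Wwox, a tumour suppressor at a fragile site, and 387 kb in Camta1, a transcription factor gene.

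Next to the dividing value of 0.5, the islands of Nup133, Bmp7 and Gpsm1 stood at 0.49988, 0.49988 and 0.49985. Just beyond it stood those of Pcnx2, Zmiz1 and Ltbp2, at 0.5 when rounded, 0.50071 and 0.50111. The division thus cuts through a continuous range.

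The width of first-half islands ranged from 200 to 50000 bp, and the middle of the distribution ran between 2600 and 7000 bp (quartiles) around a median of 4400 bp. For second-half islands the median was 4000 bp (quartiles 2600 and 6200 bp), and for islands over gene starts it was 6000 bp (quartiles 4000 and 9600 bp). Within first-half islands, those whose near edge lay up to 1 kb behind the start had a median of 4200 bp, and those at 50 to 100 kb one of 5200 bp. To hold gene and chromosome fixed, widths were compared within the 474 transcripts with islands on both sides of the middle. The first-half median was the wider in 256 transcripts and the narrower in 210, with 8 ties. This did not pass after adjustment over the 4 tests made (54.9% wider, exact 95% interval 50.3 to 59.5, p = 0.0370, adjusted p = 0.0740, two-sided exact sign test). Medians over these transcripts were 5000 bp for first-half and 4600 bp for second-half islands, and the median difference was 300 bp. In the 25 such transcripts with positions equal to GRCm38 and no tie, 12 had the wider first-half median.

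The 10 widest first-half islands lay in 9 genes, 5 of which are on chromosome 15. The gene Ago2, which encodes the slicing Argonaute protein of RNA interference, held the widest, 50000 bp on chromosome 15 from 72965000 to 73014999. It began 378 bp behind the gene start and covered 99.1% of the front part of the gene. Cmip, an adaptor protein known from T cell signalling, held 2 of the 10, of 47800 and 29200 bp on chromosome 8. The wider of these is counted under the shorter listed transcript, and its midpoint lies past the middle of the longer one. Rcan1, an inhibitor of the phosphatase calcineurin, held one of 36800 bp on chromosome 16, from 92426400 to 92463199, over 91.4% of the front part. Asap1, which activates hydrolysis of GTP by Arf proteins at sites of adhesion, held one of 36200 bp, and the transcriptional repressor gene Zhx2 one of 33800 bp. Rptor, the substrate-binding subunit of the kinase complex mTORC1, held one of 25200 bp, and Deptor, an inhibitor of mTOR, one of 24000 bp. The remaining islands lay in Rasa3, a Ras GTPase-activating protein (24800 bp), and Cyrib, a Rac1-binding protein (23800 bp). Of 18 first-half islands of at least 20 kb, 6 were on chromosome 15, which held 72 of all 1627 (4.43%).

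Most genes held a single first-half island, while others held several. One first-half island was found in 693 genes, at least 2 in 309 and at least 5 in 35, and the 309 genes held 934 of the 1627 islands (57.4%). The gap between neighbouring first-half islands of a transcript had a median of 2.4 kb and a minimum of 600 bp, and 174 of 607 gaps (28.7%) had exactly this minimum. Joining islands at most 1 kb apart would leave 1365 blocks. The number of islands in a gene therefore depends on the gap allowed in calling, a setting not given in the sources used here. In the median transcript first-half islands covered 28.1% of the front part, with quartiles of 13.4 and 47.2%.

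Agap1, which encodes an Arf GTPase-activating protein of endosomal traffic, carried the most first-half islands. Its 17 islands on chromosome 1, in a gene from 91351385 to 91791857, were 1000 to 16600 bp wide with a median of 6800 bp. They began 615 bp behind the start and summed to 141 kb, or 63.9% of the front part, while 7 second-half islands followed in the rest of the gene. Mad1l1, a component of the spindle assembly checkpoint, had 12 first-half islands of 89.6 kb in all, and 13 in the second part. Slc39a11, a zinc transporter gene, had 10 of 74.4 kb and 8 second-half islands. Rbfox3, a splicing factor gene known as a marker of neurons, had 10 of 46.8 kb, the nearest with its midpoint 57.2 kb behind the start, and 11 second-half islands. Sh3pxd2a, a scaffold of the invasive protrusions called invadopodia, had 10 short ones with a median of 1800 bp.

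Further down the order, Septin9, a cytoskeletal GTP-binding protein, had 9 first-half islands under 3 transcripts with different starts, and Cmip had 8 under 2. Those under the shorter Septin9 transcripts lie past the middle of its longest listed transcript. Membership can thus depend on the paired transcript, and 17 genes had first-half islands under more than 1. Trappc9, a subunit of a vesicle tethering complex, had 8 with a median of 10100 bp. Zfhx3, a homeobox and zinc finger transcription factor gene, had 8 of 50 kb. No first-half island contained the start of another gene in the list, nor of another listed transcript of its own gene. Only starts of transcripts paired with an island were checked. An island over such a start may have been paired with that transcript instead, so the absence carries little weight. Other RefSeq starts, such as the inner one of Mad1l1, were not checked. Each island is paired with 1 transcript by a rule not given in the sources used here.

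**Figure D2:**
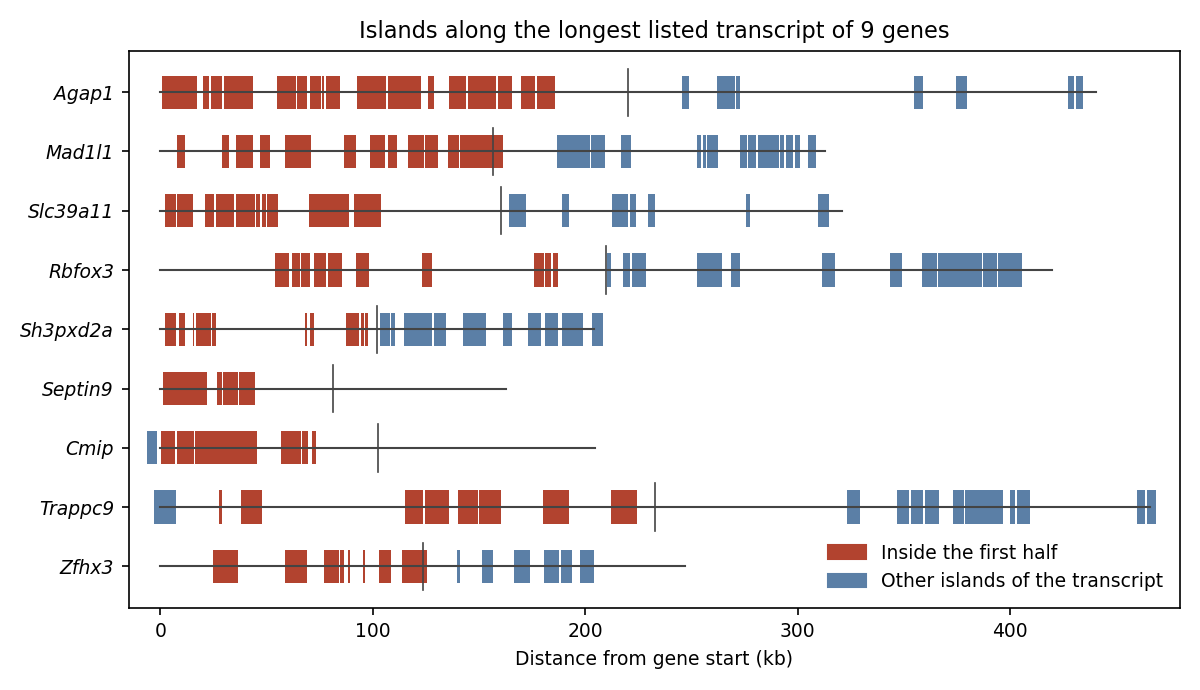
Islands along the longest listed transcript of 9 of the 10 genes with most first-half islands, plotted by distance from the gene start in kb (x axis), 1 gene per line with the middle of the gene as a vertical tick. Red boxes are first-half islands and blue boxes other islands of that transcript, drawn to scale. Islands paired with shorter transcripts are not drawn, which leaves out those in the second part of Septin9 and Cmip. The 17 first-half islands of Agap1 lie between 0.615 kb and the middle of the gene.

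Genes with first-half islands were long. Their median RefSeq length was 47.4 kb, against 17.3 kb for all 21631 protein-coding genes of the chromosomes in the list, of which 4.63% had a first-half island. The share was 0.530% in genes up to 10 kb, 3.14% from 10 to 20 kb and 7.35% from 20 to 50 kb. It stood at 9.11% from 50 to 100 kb, 10.8% from 100 to 200 kb and 8.48% above 200 kb. An island must fit inside the gene, so short genes can hold few. Second-half islands followed the same lengths, from 0.517% in the shortest to 14.0% in genes of 100 to 200 kb.

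Chromosomes differed widely in the share of protein-coding genes with a first-half island. Chromosome 8 had the highest, with 124 of 1043 genes (11.9%), followed by chromosome 5 with 8.90%, chromosome 11 with 8.08% and chromosome 16 with 7.22%. Chromosomes 11, 8 and 5 held the most islands, 231, 217 and 199. Shares were lowest on chromosome 13 (0.965%), chromosome 18 (2 of 511 genes, 0.391%) and the X, where none of 966 genes had one. Second-half islands were scarce on these as well, with 28 inside islands in all on chromosome 13, 13 on chromosome 18 and 2 on the X.

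**Figure D3:**
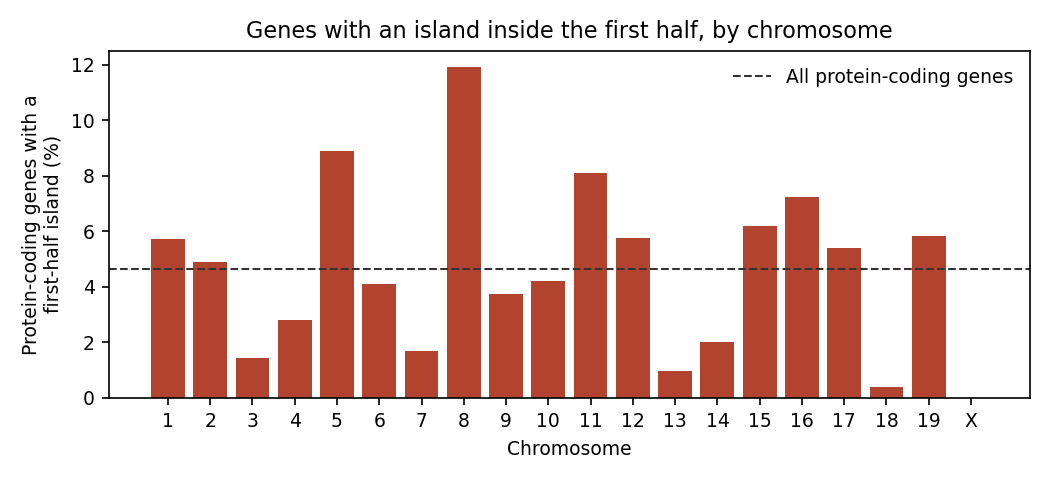
Share of protein-coding genes with a first-half island in % (y axis, bars) on each chromosome (x axis), with the 4.63% of all protein-coding genes as a dashed line. Chromosome 8 stands highest at 11.9%, and the X chromosome has none.

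First-half islands hardly ever held a narrow region, while islands over gene starts often did. Of all 8242 islands, 4.82% shared at least 1 bp with one of the 1705 distinct MACS regions. Among first-half islands 11 of 1627 did (0.676%, exact 95% interval 0.338 to 1.21). Among the 1166 islands over the start of their gene 193 did (16.6%, 14.5 to 18.8). The odds ratio of first-half islands to these was 0.0343 (0.0168 to 0.0633, adjusted p = 2.97e-62, two-sided Fisher's exact test). By definition, however, no first-half island touches the start of its gene. In genes with first-half islands, 109 of 139 narrow regions in the front part lay within 1 kb of the start. The class definitions thus favour this direction, and the p-value does not measure a difference apart from position. Among islands under 5 kb the shares were 0.671% for first-half islands and 11.2% over starts, and among wider ones 0.682% and 19.5%. Where gene positions equal GRCm38, 1 of 89 first-half islands (1.12%) and 46 of 78 islands over starts (59.0%) held a narrow region. Where they differ, the shares were 0.650% and 13.5%. On chromosome 16 they were 2.74% and 56.1%, and on all other chromosomes 0.579% and 14.5%. The difference between these sets of genes was not tested.

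Against second-half islands no difference was detected. Of 2167 second-half islands 9 held a narrow region (0.415%, exact 95% interval 0.190 to 0.787). The odds ratio of first-half to second-half islands was 1.63, with an interval from 0.613 to 4.47 that leaves room for a lower as well as a severalfold higher share (adjusted p = 0.487, two-sided Fisher's exact test). MACS positions are rounded, to 1 kb for the largest ones. With each region widened by its rounding step, 18 first-half islands (1.11%) and 10 second-half islands (0.461%) held one, and the test passed narrowly (adjusted p = 0.0493, the same exact test). The call thus rests on how rounded positions are read.

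**Figure D4:**
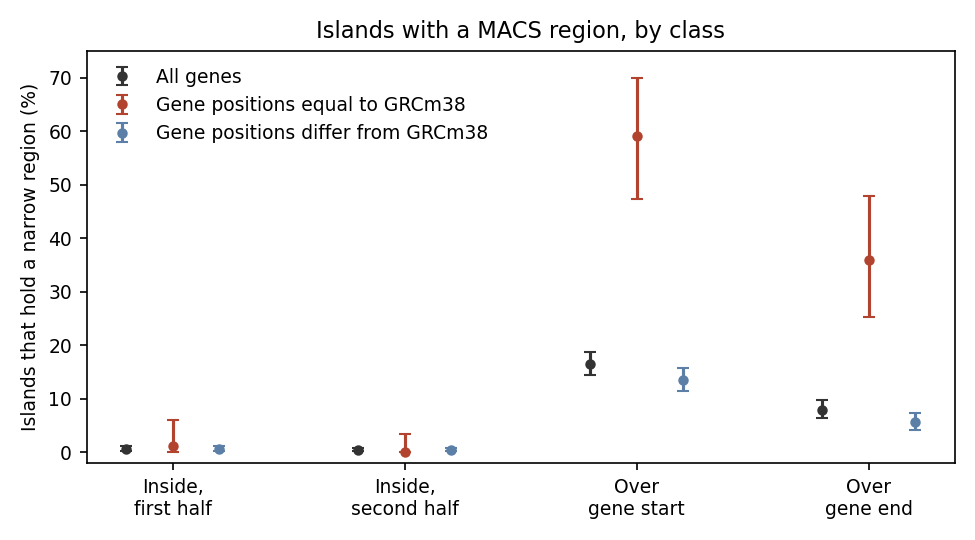
Share of islands that hold a MACS region in % (y axis) for first-half, second-half, start and end islands (x axis), with exact 95% intervals as bars. Black points are all genes, red points genes whose deposited positions equal GRCm38 and blue points the other genes; first-half islands stay at 1.12% or less in each set, islands over gene starts reach 59.0%.

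Most of the first-half islands with a narrow region began close to the gene start. Of 119 islands whose near edge lay up to 1 kb behind the start, 7 held a region (5.88%, exact 95% interval 2.40 to 11.7), and of the 1508 farther in 4 did (0.265%, 0.0723 to 0.678). This split was made after the values were seen and carries no test. Ntn1, which encodes the guidance ligand netrin-1, had 2 regions in an island of 1800 bp on chromosome 11 from 68198200 to 68199999, which began 329 bp behind the start. Hunk, a protein kinase gene first described in mammary tissue, had 1 at 90386800 to 90387000 on chromosome 16, at the front edge of an island of 6800 bp. Fam20c, a kinase of secreted proteins, had 1 at 139231000 to 139232000 on chromosome 5, and Ap1g2, a subunit of a clathrin adaptor, 1 at 55725100 on chromosome 14.

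The islands of Tsc22d1, a leucine zipper gene responsive to TGF-beta, and of Zfp651, a zinc finger gene, also began within 1 kb of the start. The same held for Dpf3, a subunit of BAF chromatin remodellers, which the rule for named genes left out and which is added here to complete the 11. Deeper in the gene, Jph3, a junctophilin that ties the cell membrane to the endoplasmic reticulum, had 2 regions, 22.5 and 23.5 kb behind the start. Clec16a, an endosomal regulator of mitophagy, had 1 at 10564300 to 10564600 on chromosome 16, 19.0 kb behind the start, in the member of the 11 with positions equal to GRCm38. Kank2, an actin regulator at adhesions, had 1 at 3.19 kb and Iffo2, an intermediate filament family gene, 1 at 44.0 kb. RefSeq has 2 start sequences for Iffo2 on chromosome 4 of GRCm38.p6, beginning at 139530298 and 139574470. These lie about as far apart as the Iffo2 region lies behind the deposited start. Whether this region covers an inner start was not tested. In all, 13 distinct regions lay in first-half islands.

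Narrow regions lay in the front part of 117 of the 1002 genes with first-half islands. They numbered 139 distinct regions by their midpoints, 109 of them within 1 kb of the gene start. Only 13 of the 139 regions were in first-half islands, 46 were in islands over starts, 4 in other islands and 76 in no island. The same counts for genes without first-half islands are not given here, so none of these numbers is read as particular to this part. Of the 1020 transcripts, 216 (21.2%) were also paired with an island over their start. This and the next counts leave out islands paired with another transcript. The start of Col4a2, for example, lies under an island paired with Col4a1 and is not counted. Of all 1879 transcripts with an inside island, 18.4% did. Transcripts with islands in the front part alone had a start island in 90 of 546 cases (16.5%), and those with islands in the second part alone in 130 of 859 (15.1%). This difference did not pass (odds ratio 1.11, interval 0.815 to 1.5, adjusted p = 0.499, two-sided Fisher's exact test). The 474 transcripts with islands in both parts made up 46.5% of those with first-half and 35.6% of those with second-half islands.

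Gene lists were read against the 4.63% of protein-coding genes with a first-half island and against the share expected from gene length, which averages the shares of the length classes above over the genes of a list. No list was tested, since lists and members were chosen with earlier results of these data known. Second-half counts are printed without a share expected from length. In each length class above 10 kb more genes had a second-half than a first-half island. From 20 to 50 kb these were 9.57% against 7.35%, and from 50 to 100 kb 12.5% against 9.11%. Among signalling lists, ligands and receptors of TGF-beta and BMP and their transducers stood highest. First-half islands lay in 9 of 32 of these genes (28.1%, against 8.06% by length), and second-half islands in 4. Smad3, which carries the signal to the nucleus, had 4 first-half islands of 16.6 kb in all. Smurf1, a ubiquitin ligase for Smads, had 2 of 26.2 kb, and Ltbp2, a matrix protein of the latent TGF-beta binding family, 2 of 19 kb. The ligand genes Bmp7 and Tgfb3 had 2 and 1. Smad7, Eng, Ski and Tgfbr3 had 1 each.

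In Notch signalling 7 of 33 genes had a first-half island (21.2%, against 5.47% by length), and 6 a second-half island. All 4 receptors, Notch1, Notch2, Notch3 and Notch4, were among the 7 with 1 first-half island each, as were the ligand gene Jag2 and the secretase subunit gene Psen2. In Wnt signalling 8 of 47 had one (17.0%, 6.21% by length) and 13 a second-half island. The co-receptor gene Lrp5 had 5 islands of 28.2 kb over 55.4% of its front part, the ligand genes Wnt3, Wnt7b and Wnt3a had 3, 2 and 2, and the nuclear effector Tcf7l2 had 2. In PI3K and Akt signalling 5 of 30 had one (16.7%, 8.05% by length) and 5 a second-half island. The first-half ones were led by Rptor with 6 islands of 55.6 kb and followed by the lipid phosphatase Inpp5d and the kinase Akt2. In NF-kB signalling 4 of 29 had one (13.8%, 6.31% by length) and 9 a second-half island. Among the 4 were Map3k14, the kinase of the non-canonical pathway, with 2 islands of 18 kb, the IkB kinase subunit Ikbkb and the inhibitor Tnip1. The MAP kinase cascade had first-half islands in 4 of 42 (9.52%, 6.47% by length) and second-half islands in 4, the first-half ones in the inhibitor Spred2, the receptor Erbb3 and the kinases Map2k6 and Map3k11. IL6 and STAT3 signalling had 2 of 26 (7.69%, 5.80% by length), Stat3 and the ligand gene Lif, and a second-half island in 1. These last 2 lists stood near their length-based share.

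Genes of adhesion and guidance were also above that share. Semaphorins, plexins and Eph receptors had first-half islands in 10 of 38 genes (26.3%, against 7.43% by length), and second-half islands in 9. The island of Epha2, an ephrin receptor gene, spanned 18400 bp on chromosome 4 from 140857200 to 140875599 and covered 99.5% of the front part, and 2 islands covered 93.9% of that of Plxna1, a semaphorin receptor gene. Sema4d, a ligand gene, had 3. Collagens, laminins and integrins had 9 of 44 (20.5%, 8.78% by length), and second-half islands in 19. Col4a2 and Col4a1, the basement membrane collagen genes that share a promoter, had 3 each, of 38.4 and 28.2 kb, and Col18a1 had 6. Receptor-type tyrosine phosphatases had 3 of 19 (15.8%, 9.03% by length) and a second-half island in 1, with 2 first-half islands in Ptprj and 1 each in Ptprs and Ptprm.

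Chromatin genes and corepressors had first-half islands in 11 of 42 genes (26.2%, against 8.56% by length), and second-half islands in 13. Trrap, a scaffold of histone acetyltransferase complexes, had 4 of 36.8 kb over 67.2% of its front part, and the histone demethylase gene Kdm4b had 3. Histone deacetylases were represented by Hdac4 and Hdac5. Of the DNA methylation machinery 2 of 21 had a first-half island (9.52%, 5.87% by length) and 4 a second-half island. The 2 were Dnmt1, the maintenance methyltransferase, with 2 islands of 16.8 kb, and Tet3, which oxidises methylcytosine, with 2 of 10.2 kb. The epithelial-mesenchymal transition list had 5 of 32 (15.6%, 4.59% by length), and second-half islands in 6. Cdh1, which encodes the epithelial adhesion protein E-cadherin, had 2 islands, of 18000 and 7400 bp on chromosome 8, over 76.0% of its front part. Krt7, Epcam, Ovol2 and the mesenchymal factor Twist2 had 1 each. Tumour suppressors had 5 of 38 (13.2%, 6.18% by length) and second-half islands in 6, with 5 first-half islands in Wwox, 4 in Runx1 under 2 transcripts, 2 in Rassf5, 2 in Stk11 and 1 in Klf4.

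Among markers of host cells, none of 24 immune cell genes had a first-half or second-half island. Of 22 lung epithelium genes none had a first-half and 2 a second-half island. Gene length gives shares of 2.71% and 4.31% for first-half islands, which is less than 1 gene in each of these short lists. Among 18 endothelial and stromal markers 4 had one (22.2%, 6.05% by length), and 2 a second-half island. Vwf had 2 first-half islands, and Flt1, Eng and Pecam1 had 1 each. These are endothelial genes, and in which cells of the metastases the islands arose was not tested. Of 24 housekeeping genes none had a first-half or second-half island, though 6 had an island outside these classes. Gene length gives 3.24% for first-half islands here, again less than 1 gene. Chromosomes were not held fixed in any of these shares.

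**Figure D5:**
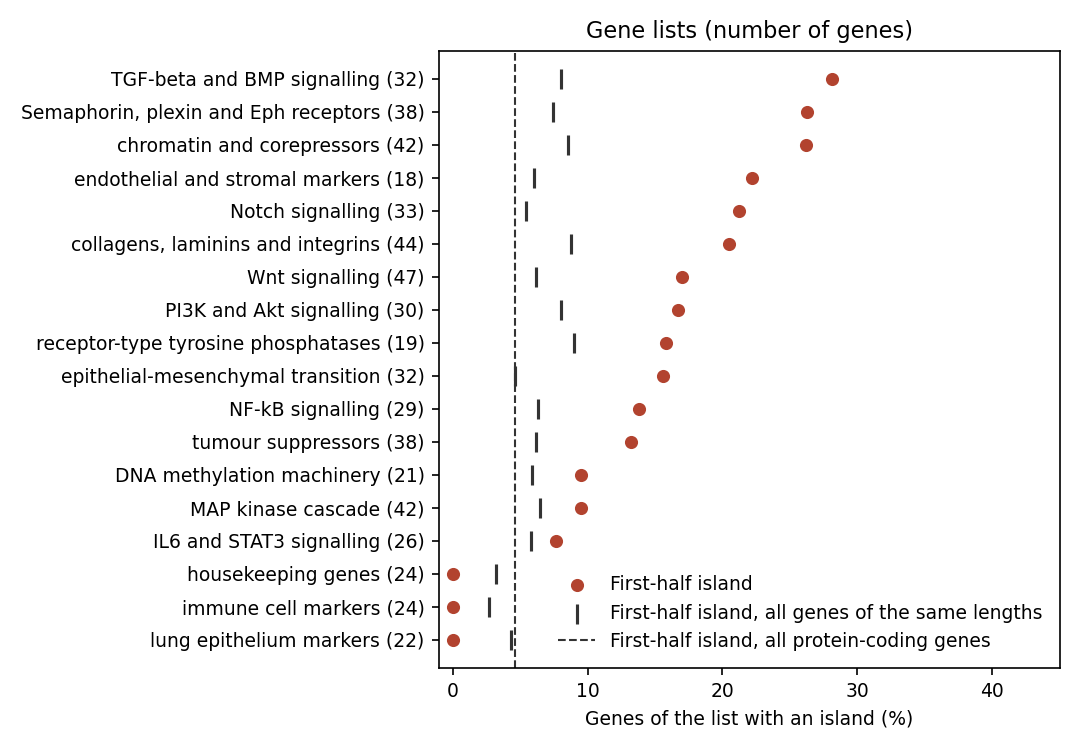
Share of genes of each list with a first-half island in % (x axis, red points), with the number of genes in brackets (y axis). Short vertical marks give the share expected from gene length and the dashed line the 4.63% of all protein-coding genes; 15 of the 18 lists drawn lie above their mark, from IL6 and STAT3 signalling at 7.69% to TGF-beta and BMP signalling at 28.1%, and 3 lists have no such gene.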

How the data were processed

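ChIP-seq with an antibody against DNMT3B was done on 4T1 lung metastases, in 2 ChIP and 2 input libraries. Per the submitters' processing notes, the tools were Bowtie2 2.10 for alignment, and MACS 1.4 and SICER for calling. Per the file headers, the authors deposited 2 lists of base positions with gene names, with no other unit: 8242 SICER islands, and 4304 lines of MACS regions, which are 1705 distinct ones. Any pooling of libraries is not stated. Depth is unknown, and exact 95% intervals cover counting error only.

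Genes were matched to RefSeq GRCm38.p6 on accession, then symbol, then unambiguous synonym, which placed all 1627 first-half islands. A missing MACS end was set to the start. An island held a narrow region if they shared 1 bp. The 4 tests (Fisher's exact and sign tests, two-sided) were run in Python 3.11.15 with SciPy 1.17.1, checked on simulated data, and adjusted by Benjamini-Hochberg over the 4. Named genes were the 10 with most islands, the 10 widest islands, the 10 with most narrow regions, up to 3 per list, 3 islands on each side of 0.5, and 5 nearest to and 5 farthest from the start. List members with 1 or 2 islands are named beyond this rule, after their values were seen, to account for small counts. The members and the 19 lists were chosen with earlier results of these data known. One list and 1 gene are not reported here.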

Additional observations from a re-analysis of the deposited data

How the results depend on the processing

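The lower share of narrow regions in first-half islands than in islands over gene starts kept its direction and its call under all 10 alternatives. The difference ranged from -57.9 to -10.5 percentage points. None of these alternatives let an island over the start count as a first-half island, so the class definitions favour this direction in each. The share compared with second-half islands kept its direction under all 10, at 0.0761 to 1.12 points, and passed under 1, with MACS regions widened by their rounding step (0.645 points). Island width within genes, given as the percentage of transcripts with the wider first-half median minus 50, turned to -2 where gene positions equal GRCm38 and did not pass under the other 5 alternatives. The share of genes with a start island turned to -1.07 points with islands of at least 5 kb and did not pass under the other 5. No paired analysis was possible because neither list separates the libraries, so none of the 4 could be dropped either. Widths are known to 200 bp, and what was not listed cannot be told from what was not enriched.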
